A study of Mus musculus with 12 samples.

Results

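Rab GTPases are small GTP-binding proteins that mark the membranes of the cell and steer vesicles between them. All protein-coding genes whose mouse symbol is Rab followed by a number, with or without a further letter or digit, were taken as members. The rule rests on the name alone, but it was set with earlier results of these data known. In all, 59 of the 36439 genes in the count tables met this rule, all of them present in the tables. The data are RNA sequencing libraries, 12 in all, of macrophages taken from solid tumours (tumour-associated macrophages, TAMs). C57BL/6 mice bore the tumours subcutaneously, as Lewis lung carcinomas, a transplantable mouse lung cancer. The 4 groups of 3 libraries were MRC1+ TAMs, CD11c+ TAMs, TAMs overexpressing miR-511-3p, and TAMs overexpressing a mutated form of this microRNA. Cells of every group were F4/80+, F4/80 being a macrophage surface protein, and the sorted cells bore in addition MRC1, a mannose receptor, or CD11c, an integrin. The sample titles of both overexpression groups begin with SFFV, a name used for a retroviral promoter, and the labels do not say which cells the construct was introduced into. Nor do they say whether the 3 libraries of a group came from separate mice or tumours, so a p-value here measures spread between libraries, which may be technical.

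A Rab protein cycles between a GDP-bound form, held in the cytosol by the GDP dissociation inhibitor, and a GTP-bound form on a membrane. Exchange factors load it with GTP, GTPase-activating proteins return it to the GDP form, and effectors bound by the GTP form tether, move or fuse the vesicle. In macrophages these proteins are known for the maturation of phagosomes, the recycling of surface receptors, the delivery of Toll-like receptors and the release of granule and lysosome contents.

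Each MRC1+ library had 15664146 to 17689064 reads in genes, with 10824918 to 17318957 in CD11c+ TAMs, 23326219 to 27186233 in miR-511-3p TAMs and 22906418 to 27890433 in mutated miR-511-3p TAMs. Levels are given as CPM, the reads of a gene scaled to a fixed number of counted reads in each library, with TMM, the edgeR method that evens out library composition. Mrc1 had 4099, 3623 and 3609 CPM in the MRC1+ libraries against 1447, 1826 and 1574 CPM in the CD11c+ libraries, and Itgax, which encodes CD11c, had 123, 104 and 78.6 CPM in the MRC1+ libraries against 943, 1051 and 972 CPM in the CD11c+ libraries. Mir511, the hairpin gene of miR-511-3p, had 66, 63 and 80 reads in the miR-511-3p libraries against 3, 9 and 5 reads in the mutated libraries, and whether reads of the mutated hairpin align to Mir511 is not known. Adgre1, the gene of F4/80, had 1230, 1028 and 1086 CPM in the MRC1+ libraries and 568, 770 and 586 CPM in the CD11c+ libraries. The first CD11c+ library stood apart, with 12 fibroblast markers summing to 1427 CPM against 330.5 and 395 CPM in the others of its group and 781 to 1057 CPM in the MRC1+ libraries. The third mutated library stood apart in the same way, at 728 CPM against 199 and 187 CPM in the others of its group and 98.8, 101 and 293 CPM in the miR-511-3p libraries.

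Together the 59 Rab genes took under 1% of the counted reads, a share that lay higher in all overexpression libraries than in any sorted library. The share was 0.410% ± 0.0080 in MRC1+ TAMs and 0.388% ± 0.015 in CD11c+ TAMs, and 0.510% ± 0.0088 in miR-511-3p TAMs and 0.504% ± 0.0086 in mutated miR-511-3p TAMs (SD, n = 3 each). The ranges were 0.401% to 0.416% in MRC1+ and 0.373% to 0.404% in CD11c+ libraries, which overlapped, and 0.500% to 0.517% in miR-511-3p and 0.494% to 0.511% in mutated libraries, which overlapped too. No test was made on this sum over the members. The overexpression and the sorted libraries also differed in other genes. Mitochondrially encoded genes summed to 8626 to 10052 CPM in the overexpression libraries against 2787 to 3507 CPM in the sorted libraries. The part of such differences in the Rab share was not tested.

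Levels of different genes were set beside each other only as CPM per kilobase of exon. In MRC1+ TAMs the most abundant members per kilobase were Rab31, an endosome and trans-Golgi protein of the Rab22 subfamily, at 126 ± 4.0, Rab5c, which organizes early endosomes, at 102 ± 9.1, and Rab8b, which acts in transport from the Golgi to the cell surface, at 96.7 ± 1.6 CPM per kilobase (SD, n = 3). Rab11a of the recycling endosome followed at 72.2 ± 5.3, Rab1a, which acts between the endoplasmic reticulum (ER) and the Golgi, at 69.5 ± 1.4, and Rab10, which in mouse macrophages brings Toll-like receptor 4 to the surface, at 59.8 ± 1.5 CPM per kilobase. Rab5c and Rab8b did not differ beyond their spread, nor did Rab11a and Rab1a. These 6 genes made up 48.1% of the summed level of the family in MRC1+ TAMs. In CD11c+ TAMs the same 6 genes led in another order and made up 43.5%, with Rab8b at 116 ± 9.7, Rab5c at 104 ± 13.1, Rab31 at 88.4 ± 6.8, Rab1a at 63.6 ± 3.5, Rab10 at 61.4 ± 3.7 and Rab11a at 57.4 ± 5.4 CPM per kilobase. Of these, Rab8b and Rab5c overlapped in their spread, as did Rab5c and Rab31, and Rab1a, Rab10 and Rab11a. The spread of Rab11a also overlapped that of Rab1b, the next by mean at 52.1 ± 4.4 CPM per kilobase, so the sixth place was not settled.

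In both overexpression groups Rab5c led, with 192 ± 8.9 CPM per kilobase in miR-511-3p TAMs and 180 ± 10.9 CPM per kilobase in mutated miR-511-3p TAMs. Rab1a came next at 126 ± 9.5 CPM per kilobase in miR-511-3p TAMs and 120 ± 4.8 in mutated miR-511-3p TAMs. Rab7, which directs late endosomes and phagosomes to lysosomes, followed at 124 ± 6.9 in miR-511-3p TAMs and 118 ± 9.3 CPM per kilobase in mutated miR-511-3p TAMs. Rab1a and Rab7 were indistinguishable within their spread in both groups. Next by mean stood Rab8b, at 110 ± 9.8 CPM per kilobase in miR-511-3p TAMs and 105 ± 6.4 in mutated miR-511-3p TAMs. Its spread overlapped that of Rab7 in both groups. Rab31 stood lower, at 80.4 ± 4.0 CPM per kilobase in miR-511-3p TAMs and 77.2 ± 3.7 in mutated miR-511-3p TAMs, beyond the spread of Rab8b in either group. The sixth place went to Rab7b, a late endosome to Golgi protein, at 71.0 ± 3.5 CPM per kilobase in miR-511-3p TAMs, and to Rab1b, a close relative of Rab1a, at 68.5 ± 5.5 CPM per kilobase in mutated miR-511-3p TAMs. Rab7b and Rab1b did not differ beyond their spread in either group, with Rab1b at 70.0 ± 2.0 CPM per kilobase in miR-511-3p TAMs and Rab7b at 65.3 ± 2.6 CPM per kilobase in mutated miR-511-3p TAMs. Rab11a overlapped with both, at 66.3 ± 4.5 CPM per kilobase in miR-511-3p TAMs and 62.4 ± 3.1 in mutated miR-511-3p TAMs. At the other end, 17 members in MRC1+ and 18 in CD11c+ TAMs, and 20 in each overexpression group, averaged under 1 CPM per kilobase. Rab3c, a neuronal vesicle gene, Rab17, an epithelial one, and Rab9b had no read in any of the 6 overexpression libraries. No difference between the sorted and the overexpression libraries was tested.

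**Figure D1:**
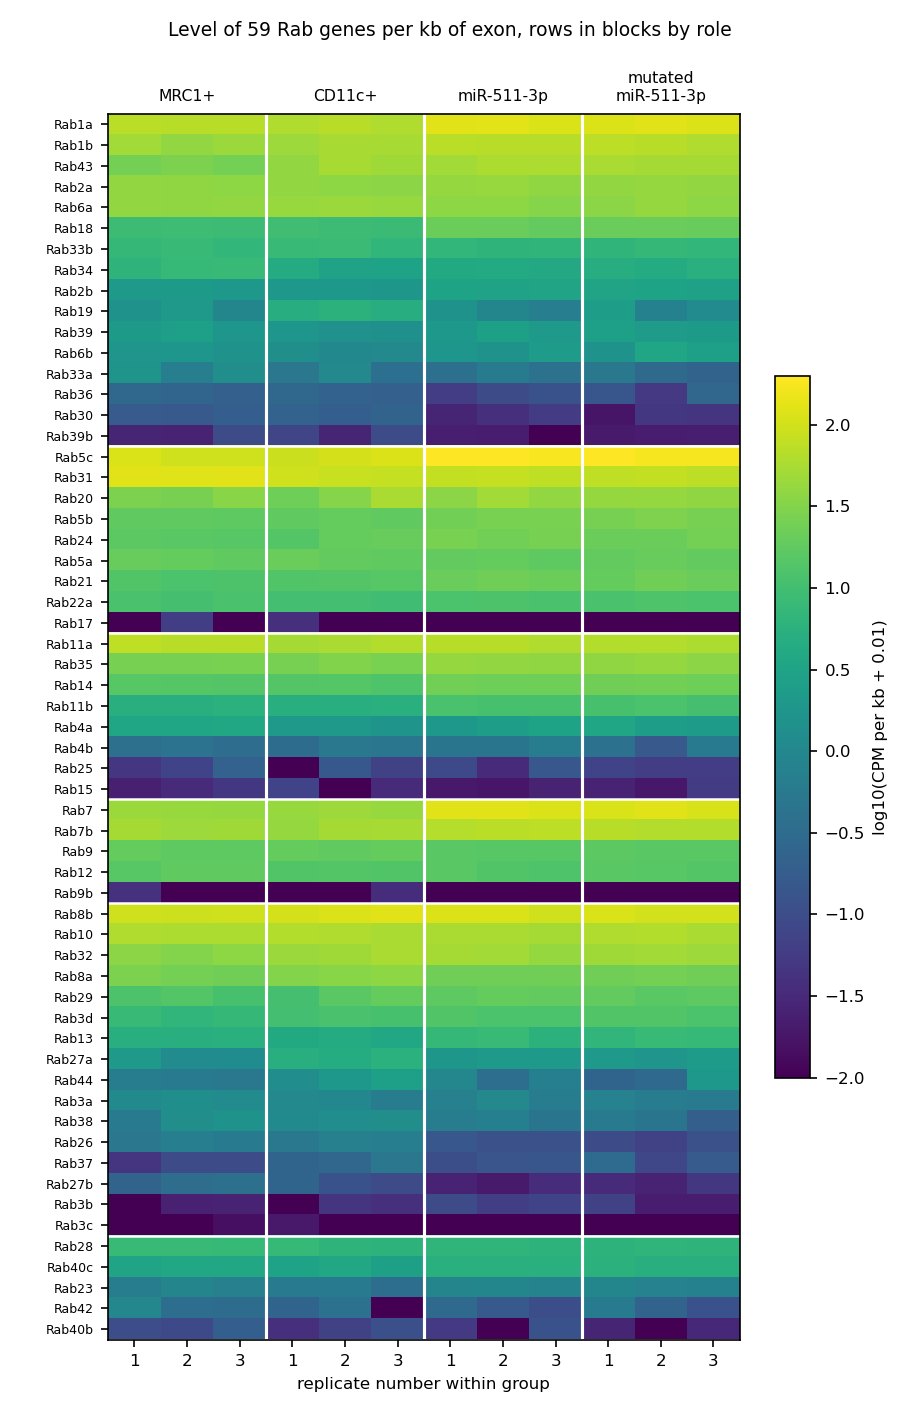
Level of the 59 Rab genes per kilobase of exon in each of the 12 libraries, as log10(CPM per kb + 0.01), in columns by group and in blocks of rows by role (from top to bottom: ER, Golgi and biosynthetic transport; early endosome and phagosome entry; recycling endosome; late endosome and lysosome; exocytosis, secretory granules and lysosome-related organelles; cilia and less studied members). Rab5c, Rab8b, Rab31 and Rab1a are bright in all 4 groups, Rab7 is brighter in the overexpression libraries, and Rab3c, Rab17 and Rab9b sit at the bottom of the scale.

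The first comparison asked how the 2 sorted subsets of TAMs differ. In MRC1+ TAMs, 12 of the 50 tested members differed from CD11c+ TAMs, with Rab34, Rab4a, Rab6b and Rab31 higher and Rab37, Rab27a, Rab19, Rab44, Rab43, Rab3d, Rab32 and Rab8a lower. The changes were 1.08 to 0.51 upwards and -2.09 to -0.43 downwards on the log2 scale. Of the 14 tested members of exocytosis, secretory granules and lysosome-related organelles 6 fell and none rose, while 9.71% of all genes were lower. The roles were assigned with earlier results known, and no difference between roles was tested. None of the 4 tested members of the late endosome and lysosome passed the test, at log2 fold changes of -0.05 to 0.32.

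Calls are genes with a Benjamini-Hochberg adjusted p under 0.05 in the quasi-likelihood test of edgeR over all genes tested. Of the 59 members, 9 had too few reads to enter this test. The called share of the tested members was 24.0%, against 16.6% of all genes tested. The 4 higher members were 8.0% of those tested, against 6.91% of all genes, and the 8 lower members were 16.0%, against 9.71% of all genes. Among all genes, the balance of higher and lower calls depended on the scaling. With upper-quartile scaling 8.63% of all genes were higher and 8.48% lower, beside 6 higher and 8 lower members. MRC1+ and CD11c+ values did not overlap for 26 of the 50 members, or 52.0%, against 38.3% of all genes, and of these 14 lay higher and 12 lower in MRC1+ TAMs. The median log2 fold change of the tested members was -0.03, against 0.01 for all genes. The number of called members depended on single libraries: it was 7 without the second MRC1+ library and 17 without the first CD11c+ library, and 12 of those 17 were called with all libraries too. The share of all genes called moved with it, to 8.02% without the second MRC1+ library and 29.6% without the first CD11c+ library. As these are bulk libraries, fewer cells that express a gene and less of its RNA per cell cannot be told apart.

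**Figure D2:**
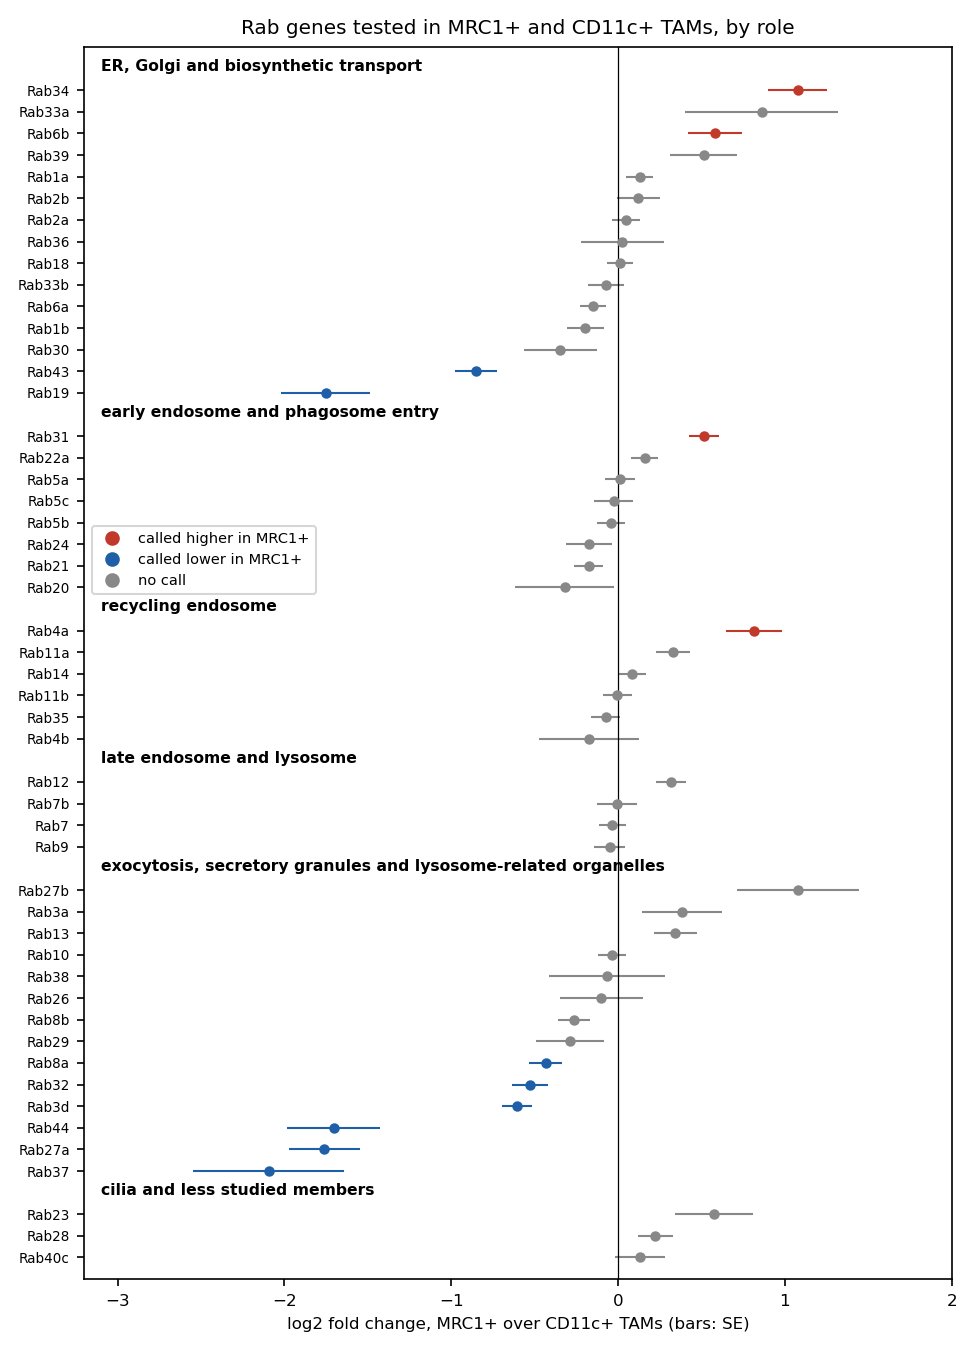
Log2 fold change of MRC1+ over CD11c+ TAMs for the 50 tested Rab genes, in blocks by role, with bars for the standard error (SE); red points were called higher and blue points lower in MRC1+ TAMs. Of the 14 members of the exocytosis block, 11 lie below 0 and 6 were called lower.

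Markers of other cells moved with this comparison. Of 15 dendritic cell markers, 12 were lower and none higher in MRC1+ TAMs, and the list summed to 90.2 to 97.0 CPM in MRC1+ libraries against 470.3 to 811 CPM in CD11c+ libraries. No marker of that list was without reads, and its members Ccr7, the receptor of migrating dendritic cells, and Flt3, a growth factor receptor of their precursors, averaged 3.17 and 1.22 CPM in MRC1+ TAMs against 122 and 25.5 CPM in CD11c+ TAMs. Of 8 tested T and NK cell markers 2 were lower, and that list summed to 8.33 to 10.3 CPM in MRC1+ libraries against 15.4 to 24.2 CPM in CD11c+ libraries. Of 9 macrophage markers 2 were higher and none lower. Of the remaining lists, 1 of 5 tested neutrophil markers was lower, and 1 of 4 tested eosinophil and mast cell markers was higher and 1 lower. Of 4 tested endothelial markers 1 was higher and 1 lower, of 5 tested epithelial markers 3 were higher and 2 lower, and none of 12 fibroblast or 3 tested B cell markers was called. Of 8 tested mitochondrially encoded genes, a sign of RNA quality, 2 were higher (mt-Nd5 and mt-Nd6) and none lower, with a median log2 fold change of 0.46, and the list summed to 2787 to 3507 CPM in MRC1+ libraries against 2898 to 3041 CPM in CD11c+ libraries. The part of these cells, or of RNA quality, in the differences of the Rab genes was not tested.

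Among the secretory members, Rab27a (ENSMUSG00000032202, chromosome 9), which docks granules and lysosome-related organelles at the plasma membrane, had the lowest adjusted p of the family. It had 7.90, 4.64 and 4.69 CPM in the MRC1+ libraries, against 19.2, 17.99 and 21.2 CPM in the CD11c+ libraries. Every MRC1+ library lay far below every CD11c+ library. The log2 fold change was -1.76 ± 0.21 (SE), with an adjusted p of 0.00123 in edgeR, and the call held in all 12 alternative analyses.

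Rab37, a granule protein known from mast cells, showed the largest fall. It had only 0.187, 0.475 and 0.488 CPM in the MRC1+ libraries, against 1.23, 1.37 and 2.68 CPM in the CD11c+ libraries, which rests on 3 to 9 reads per MRC1+ library and 21 to 26 reads per CD11c+ library. The groups did not overlap. Its log2 fold change was -2.09 ± 0.45 (edgeR adjusted p = 0.0171), and the call was lost without the first MRC1+ library, at an adjusted p of 0.0556, and without the second, at 0.0517.

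Rab44, a large Rab protein that in mouse mast cells acts in granule release, was also low in MRC1+ TAMs. Its levels were 3.36, 3.01 and 2.62 CPM in the MRC1+ libraries, against 6.33, 10.01 and 13.4 CPM in the CD11c+ libraries. The CD11c+ libraries spread over a wide range, yet all lay above the MRC1+ libraries. The log2 fold change was -1.71 ± 0.28 (edgeR adjusted p = 0.00518), and the call was lost in a fit of all 12 libraries, at an adjusted p of 0.0965.

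Rab3d, which sits on secretory granules of many cell types, had 32.5, 28.0 and 30.5 CPM in the MRC1+ libraries, against 44.0, 48.1 and 46.3 CPM in the CD11c+ libraries. Both groups were tight and separate. This amounts to a log2 fold change of -0.61 ± 0.09 (edgeR adjusted p = 0.00371), and the call held in all 12 alternatives.

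Rab32, which with its relative Rab38 builds lysosome-related organelles such as melanosomes, had 84.2, 73.9 and 85.3 CPM in the MRC1+ libraries, against 106, 113 and 132 CPM in the CD11c+ libraries. The groups did not overlap. On the log2 scale the difference was -0.53 ± 0.11 (edgeR adjusted p = 0.0137), and the adjusted p was 0.0594 without the second MRC1+ library. Rab38 itself averaged 1.85 ± 0.82 CPM in MRC1+ TAMs and 1.95 ± 0.16 CPM in CD11c+ TAMs (SD, n = 3 each) and was not called.

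Rab8a, a transport protein from the Golgi to the cell surface, had 130.3, 117 and 110.0 CPM in the MRC1+ libraries, against 148, 162 and 172 CPM in the CD11c+ libraries. The gap between the groups was small but complete. The log2 fold change was -0.43 ± 0.10 (edgeR adjusted p = 0.0207), and the call was lost without the second MRC1+, the third MRC1+, the second CD11c+ or the third CD11c+ library, at adjusted p-values of 0.0825, 0.0858, 0.0699 and 0.0604. Its close relative Rab8b had 466, 451 and 456 CPM in the MRC1+ libraries and 502, 553 and 594 CPM in the CD11c+ libraries, also without overlap, but its log2 fold change of -0.26 ± 0.09 did not pass (edgeR adjusted p = 0.0928).

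The other secretory members tested, Rab27b, Rab3a, Rab13, Rab10, Rab38, Rab26 and Rab29, ranged from -0.29 to 1.08 on the log2 scale without a call. The median of the 14 was -0.28, with 11 of them below 0. Rab27b, the close relative of Rab27a, stood opposite to it, at 2.42, 3.53 and 4.08 CPM in the MRC1+ libraries against 2.46, 1.19 and 0.926 CPM in the CD11c+ libraries. These groups overlapped, and the log2 fold change of 1.08 ± 0.37 did not pass in edgeR (adjusted p = 0.0813). It passed without the first CD11c+ library, with a log2 fold change of 1.62 at an adjusted p of 0.00746, and in DESeq2 at 0.0485. Rab27b passed as well without the filter on low counts.

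**Figure D3:**
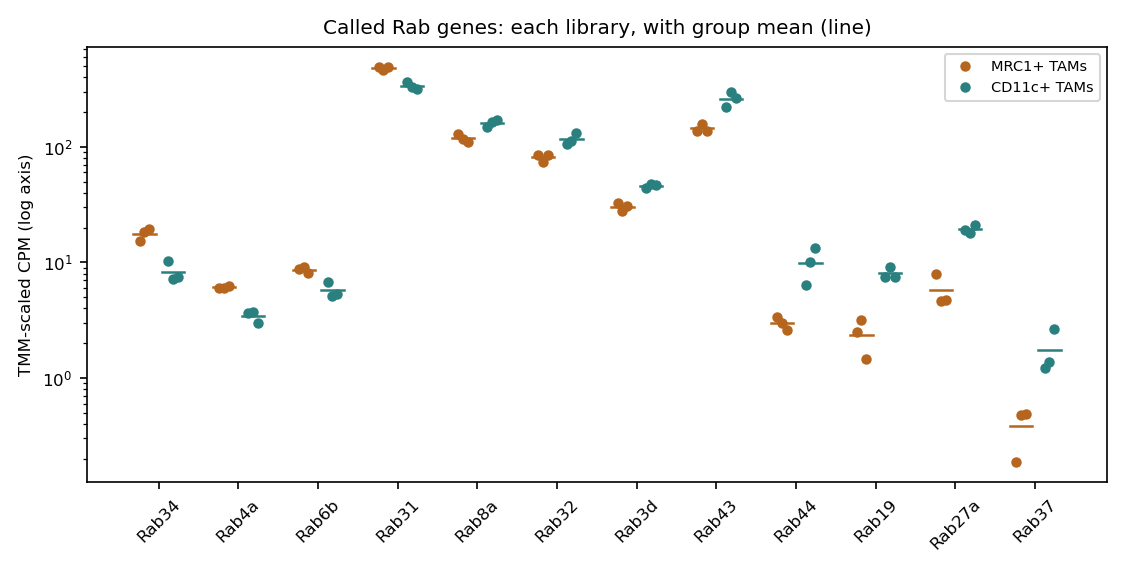
TMM-scaled CPM on a log axis of the 12 called Rab genes in each MRC1+ (left of each pair, brown) and CD11c+ library (right, teal), with lines at the group means. For all 12 genes the 3 MRC1+ points lie clear of the 3 CD11c+ points, as for Rab27a, at 4.64 to 7.90 CPM in MRC1+ and 17.99 to 21.2 CPM in CD11c+ libraries.

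Among the members of the ER, the Golgi and biosynthetic transport, 2 of 15 tested genes rose and 2 fell. Rab19, a Golgi protein of little known function, had 2.49, 3.16 and 1.46 CPM in the MRC1+ libraries, against 7.504, 9.11 and 7.51 CPM in the CD11c+ libraries. No MRC1+ library came near the CD11c+ range. In log2 terms the fold change was -1.75 ± 0.27 (edgeR adjusted p = 0.00361).

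Rab43 (ENSMUSG00000030055, chromosome 6), which acts between the ER and the Golgi and in mouse dendritic cells serves the cross-presentation of antigen, fell as well. It had 137, 159 and 137 CPM in the MRC1+ libraries, against 220, 296 and 265 CPM in the CD11c+ libraries. The groups were clearly apart. Its log2 fold change was -0.85 ± 0.13 (edgeR adjusted p = 0.0032), and the calls of Rab19 and Rab43 held in all 12 alternatives.

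Rab34, which takes part in phagosome maturation and in building the primary cilium, had 15.2, 18.2 and 19.6 CPM in the MRC1+ libraries, against 10.3, 7.15 and 7.51 CPM in the CD11c+ libraries. The highest CD11c+ library was the first, which still lay below all MRC1+ libraries. Its log2 fold change was 1.08 ± 0.18 (edgeR adjusted p = 0.00504), and this call also held in all 12 alternatives.

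Rab6b, the less widespread relative of the Golgi protein Rab6a, had 8.70, 9.17 and 8.04 CPM in the MRC1+ libraries, against 6.80, 5.12 and 5.35 CPM in the CD11c+ libraries. The groups did not overlap, but the call was the weakest of the 12. Rab6b had a log2 fold change of 0.58 ± 0.16 (edgeR adjusted p = 0.0455), and a fit with replicate as a block gave an adjusted p of 0.051. It was also lost in the fit of all 12 libraries, at 0.143, and without any 1 of the 3 MRC1+ libraries or the second or the third CD11c+ library, at 0.102 to 0.181. The 11 other tested members of this role, among them Rab1a, Rab1b, Rab2a, Rab6a and the lipid droplet protein Rab18, ranged from -0.35 to 0.86 without a call.

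The stretch of 300 bases around the transcription start was read for 48 members from RefSeq (GRCm38.p6), as 250 bases before to 50 after the start. Of the called members with a promoter entry, the promoters of Rab19, Rab32 and Rab34 are shown because each holds a match to a motif of a factor family active in macrophages, and Rab19 held the only interferon-response match of the family. Rab6b and Rab27a, not shown, also held a match, to the PU.1 motif and to the E-box. Rab34 has a second promoter entry, at chr11:78188498-78188797, which held no match and is not shown. The Rab19 promoter lies at chr6:39381103-39381402 on the plus strand, that of Rab32 at chr10:10558158-10558457 on the minus strand and that of Rab34 at chr11:78188177-78188476 on the plus strand, each written from 5′ to 3′ on its gene's strand with the matches in capitals.
Rab19: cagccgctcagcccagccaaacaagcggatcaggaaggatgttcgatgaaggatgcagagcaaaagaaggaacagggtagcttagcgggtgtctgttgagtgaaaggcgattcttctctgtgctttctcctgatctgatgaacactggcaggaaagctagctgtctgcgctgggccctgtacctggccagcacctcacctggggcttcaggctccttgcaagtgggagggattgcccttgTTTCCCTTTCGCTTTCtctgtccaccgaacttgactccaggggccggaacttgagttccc
Rab32: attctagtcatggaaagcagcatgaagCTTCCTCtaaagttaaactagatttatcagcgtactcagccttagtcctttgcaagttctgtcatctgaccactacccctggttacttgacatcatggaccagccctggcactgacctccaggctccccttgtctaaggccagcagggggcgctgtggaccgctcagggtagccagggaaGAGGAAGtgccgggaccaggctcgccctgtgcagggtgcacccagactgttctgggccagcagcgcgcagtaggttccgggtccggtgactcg
Rab34: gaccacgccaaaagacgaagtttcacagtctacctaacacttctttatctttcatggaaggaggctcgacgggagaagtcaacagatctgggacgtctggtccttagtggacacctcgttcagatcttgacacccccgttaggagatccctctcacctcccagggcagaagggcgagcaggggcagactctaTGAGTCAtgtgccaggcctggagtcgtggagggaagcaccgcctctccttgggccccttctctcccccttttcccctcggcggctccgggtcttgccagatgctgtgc
The capitals mark, in Rab19, a pair of overlapping matches to the interferon-response core, which is GAAA repeated after a gap of any 2 bases, both read on the opposite strand. In Rab32 they mark matches to the PU.1 motif GAGGAAG, one on each strand, and in Rab34 a match to the AP-1 motif TGANTCA. Over both strands, the interferon-response core was found in 1 of 48 members (2.08%) and in 3.99% of 27025 genes with a promoter entry, GAGGAAG in 16.7% of members and 15.4% of genes, and TGANTCA in 6.25% of members and 8.97% of genes. The E-box CACGTG was found in 12.5% of members and 8.09% of genes, and the NF-kB motif, GGGA and TTCC around any 2 bases, in none of the 48 members and 1.63% of genes. These are matches of letters and describe the sequence only.

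On early endosomes and entering phagosomes, 1 of 8 tested members rose. Rab31 (ENSMUSG00000056515, chromosome 17), which carries cargo between the trans-Golgi network and endosomes, had 493, 465 and 488 CPM in the MRC1+ libraries, against 366, 329 and 317 CPM in the CD11c+ libraries. All MRC1+ libraries were about equally high, and the groups were apart. For Rab31 the log2 fold change was 0.51 ± 0.09 (edgeR adjusted p = 0.00766), and the call held in all 12 alternatives. Rab5a, Rab5b and Rab5c, the core organizers of this compartment, had log2 fold changes of 0.01, -0.04 and -0.02 with standard errors of 0.09, 0.08 and 0.12, and none passed. Rab20, a phagosome protein, had 39.5, 36.1 and 48.1 CPM in the MRC1+ libraries, against 30.9, 45.6 and 79.1 CPM in the CD11c+ libraries. The MRC1+ values lay within the wide CD11c+ range, and the log2 fold change of -0.32 ± 0.30 became 0.12 without the third CD11c+ library.

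On recycling endosomes, 1 of 6 tested members rose. Rab4a, which returns receptors quickly from early endosomes to the surface, had 6.03, 6.01 and 6.28 CPM in the MRC1+ libraries, against 3.63, 3.69 and 2.98 CPM in the CD11c+ libraries. The MRC1+ values were nearly equal and well above the others. The log2 fold change was 0.81 ± 0.17 (edgeR adjusted p = 0.0134). Without the second or the third MRC1+ library the adjusted p was 0.0589 and 0.0644. Rab11a, which marks the slower recycling route, had 234, 204 and 210 CPM in the MRC1+ libraries, against 155, 173 and 188 CPM in the CD11c+ libraries. These did not overlap, but the log2 fold change of 0.33 ± 0.10 did not pass (edgeR adjusted p = 0.0593), while DESeq2 called it at 0.0449. It was called as well with upper-quartile scaling at 0.0315 and without the third CD11c+ library at 0.0439. The fits with at least 5 CPM in 3 libraries and with all 12 libraries called Rab11a too.

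Of the late endosomal and lysosomal members, Rab12, which sends recycling receptors to lysosomes, lay closest to the threshold. It had 46.8, 54.6 and 54.9 CPM in the MRC1+ libraries, against 41.4, 42.8 and 41.3 CPM in the CD11c+ libraries. The groups did not overlap, and the log2 fold change was 0.32 ± 0.09 (edgeR adjusted p = 0.0502). With upper-quartile scaling the adjusted p was 0.0308, and without the first MRC1+ library 0.028. Rab12 was also called with at least 5 CPM in 3 libraries and in the fit of all 12 libraries. Rab7, Rab7b and Rab9 had log2 fold changes of -0.03 ± 0.08, -0.01 ± 0.12 and -0.05 ± 0.09, and none passed.

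The less studied members tested were Rab23, Rab28 and Rab40c, with log2 fold changes of 0.58, 0.22 and 0.13, and none was called. The 9 members that could not be tested, Rab3b, Rab3c, Rab9b, Rab15, Rab17, Rab25, Rab39b, Rab40b and Rab42, had 3 to 29 reads each over the 6 libraries.

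Members with related proteins were also set beside each other in pairs. Among pairs of at least 60% identity between their translated coding sequences, 19 had both genes tested, and in 2 of these the log2 fold changes differed by more than 1. Both were secretory pairs, but this count depends on the limit of 1. Just under it, at 0.99 each, stood Rab4a and Rab4b of the recycling endosome and the secretory Rab3a and Rab3d. The secretory Rab8a and Rab8b differed by 0.17. The 3 pairs most alike, Rab1a and Rab1b, Rab6a and Rab6b, and Rab11a and Rab11b, with 90.7% to 92.5% identity, differed by 0.32 to 0.73. Rab27a and Rab27b share 72.9% of their residues. The ratio of Rab27a to Rab27b reads within a library was 3.26, 1.31 and 1.15 in the MRC1+ libraries, against 7.81, 15.1 and 22.9 in the CD11c+ libraries. In every library Rab27a had more reads than Rab27b, and the excess was smaller in all MRC1+ libraries. Rab26, a granule protein as well, and Rab37 share 70.4%, and the ratio of Rab26 to Rab37 reads was 7.67, 4.11 and 3.50 in the MRC1+ libraries, against 1.19, 1.52 and 0.731 in the CD11c+ libraries. The groups did not overlap for either ratio, which held for 13 of the 19 pairs. In the overexpression comparison it held for 2 of 17 pairs. Several genes stand in more than 1 pair, so the pairs are not separate results, and no share over other gene pairs was computed. The ratios of Rab27a to Rab27b and of Rab26 to Rab37 rest on few reads, with 9 to 67 Rab27b reads and 3 to 26 Rab37 reads per library. No ratio was tested.

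**Figure D4:**
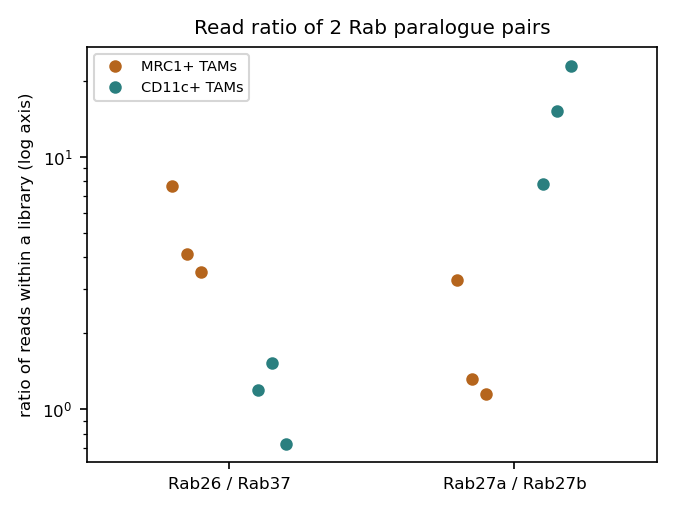
Ratio of the reads of the first to the second gene of a pair within each library, on a log axis, for MRC1+ (left, brown) and CD11c+ TAMs (right, teal). The Rab26 to Rab37 ratio is 3.50 to 7.67 in MRC1+ and 0.731 to 1.52 in CD11c+ libraries, and the Rab27a to Rab27b ratio is 1.15 to 3.26 in MRC1+ and 7.81 to 22.9 in CD11c+ libraries.

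The genes that load, unload and read out Rab proteins moved in both directions. Of 116 tested genes of this machinery 20 were higher (17.2%) and 16 lower (13.8%) in MRC1+ TAMs, beside 6.91% and 9.71% of all genes. Among the 8 genes of the core cycle, Gdi2, a GDP dissociation inhibitor, was lower at 482, 469.7 and 447 CPM in MRC1+ against 571, 600 and 590.3 CPM in CD11c+ libraries (log2 fold change -0.33 ± 0.08, edgeR adjusted p = 0.0315). That call was lost with upper-quartile scaling, without the filter on low counts and without any library but the first CD11c+ one.

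Of 34 exchange factors 5 were higher and 6 lower. Rin3, which activates Rab5-type proteins, had 19.5, 22.8 and 24.5 CPM in the MRC1+ libraries against 48.4, 54.6 and 54.8 CPM in the CD11c+ libraries, a log2 fold change of -1.24 ± 0.11. Madd, which activates Rab3 and Rab27 proteins, had 64.4, 61.9 and 63.4 CPM in the MRC1+ libraries against 81.5, 97.6 and 98.4 CPM in the CD11c+ libraries, a log2 fold change of -0.55 ± 0.10. Both genes were lower in every MRC1+ library than in any CD11c+ library. Sbf2, at 0.71 ± 0.10, and Rab3il1, which activates Rab8 proteins, at 0.49 ± 0.10 were higher. The count of called exchange factors was 4 without the second CD11c+ library and 18 without the first, and it was 6 without the second or the third MRC1+ library and 7 without the third CD11c+ library. The share of all genes called moved too, to 9.35% without the second CD11c+ library and 29.6% without the first. It was 8.02% and 8.06% without the second and the third MRC1+ library and 10.9% without the third CD11c+ library, against 16.6% with all.

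Of 36 tested GTPase-activating proteins 4 were higher and 4 lower. Tbc1d8 had 16.3, 18.2 and 17.9 CPM in the MRC1+ libraries against 43.7, 56.8 and 64.9 CPM in the CD11c+ libraries, a log2 fold change of -1.65 ± 0.15. Tbc1d9 at -0.99 ± 0.09 and Tbc1d4, known for the insulin-regulated traffic of glucose transporters, at -1.63 ± 0.28 fell too, and Tbc1d19 rose by 0.63 ± 0.11 on the log2 scale, a call lost without the second MRC1+ library at an edgeR adjusted p of 0.0539. Called genes of this list numbered 3 without the second and 4 without the third MRC1+ library, where 8.02% and 8.06% of all genes were called.

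Of 38 tested effectors 11 were higher and 5 lower. Unc13d (Munc13-4), which works with Rab27a in the priming of granules, had 26.0, 23.7 and 24.4 CPM in the MRC1+ libraries against 36.2, 46.3 and 44.5 CPM in the CD11c+ libraries, a log2 fold change of -0.78 ± 0.11 (edgeR adjusted p = 0.0031). It was lower together with Rab27a, and the groups did not overlap. Mical1, an actin-oxidizing effector, fell with a log2 fold change of -1.46 ± 0.14, and Inpp5b, a phosphoinositide phosphatase, with -0.76 ± 0.12. Rab11fip5, a Rab11 effector, had 259, 265 and 266 CPM in the MRC1+ libraries against 139.99, 169 and 151 CPM in the CD11c+ libraries and rose by 0.78 ± 0.09 on the log2 scale. Called effectors numbered 8 without the second and 7 without the third MRC1+ library, against 16 with all. The shares of all genes called were 8.02% and 8.06%, against 16.6% with all.

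The second comparison asked what miR-511-3p changes beside its mutated form. A microRNA binds target RNAs chiefly through its seed, bases 2 to 8, and usually lowers their level. The mature sequence, from RefSeq (GRCm38.p6), lies at chr2:14261051-14261072 on the plus strand and is shown with the seed in capitals. Below it stand the strongest type of seed match, 8 bases long, in the 3′ UTRs of Rab27a (chr9:73097303-73097310) and Rab37 (chr11:115161985-115161992), both on the plus strand of GRCm38 in the GENCODE M21 annotation. They are shown with 11 flanking bases on each side as matches of the longest type, and the capitals mark the match.
mmu-miR-511-3p: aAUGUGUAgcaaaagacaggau
Rab27a site: acagccaagacTACACATAaaaaagtgaat
Rab37 site: aaagtatgcatTACACATAtctgaggttac

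The overexpression left no call among the Rab genes. None of the 47 tested members passed the test of edgeR (adjusted p under 0.05), and neither did any of the 14054 genes tested, a background of 0%. Mir511 itself, at a log2 fold change of 3.56 ± 0.39, did not pass either (edgeR adjusted p = 0.482). That was also the lowest adjusted p of all genes, so the absence of a call does not show the absence of a change. At an unadjusted p under 0.05 there were 1 member and 343 genes, 2.44% of all. With the replicate number as a block the genes at that level numbered 811, or 5.77%, and 155 without the second miR-511-3p library to 740 without the first mutated library. DESeq2, the fit of all 12 libraries and the fit with the block called 1 gene each, none of them a Rab gene. The groups were without overlap for 1 member, 2.13% of those tested, against 6.38% of all genes. The median log2 fold change of the members was 0.00, and they ranged from -0.77 for Rab36 to 0.50 for Rab38, both under 2 CPM in every library. The 12 untested members, which were Rab26, Rab27b, Rab30 and the 9 named above, had 0 to 43 reads each over the 6 libraries.

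The member of lowest p was Rab34, with 9.92, 10.04 and 9.21 CPM in the miR-511-3p libraries against 11.5, 10.4 and 12.9 CPM in the mutated libraries. It was the member without overlap, and its log2 fold change was -0.26 ± 0.11 (edgeR unadjusted p = 0.04997, adjusted p = 1). Rab24, a protein of autophagy, had 55.3, 48.0 and 53.7 CPM in the miR-511-3p libraries against 44.1, 43.1 and 51.2 CPM in the mutated libraries, with overlap and a log2 fold change of 0.18 ± 0.09. Its exons overlap those of Prelid1 on the opposite strand over 62.4% of their length, and without knowledge of how the counting used strand, reads of these genes cannot be told apart. Rab7b had 309.4, 336 and 339 CPM in the miR-511-3p libraries against 315, 291 and 299.8 CPM in the mutated libraries. Rab10 had 198, 202 and 184 CPM in the miR-511-3p libraries against 216, 224 and 196 CPM in the mutated libraries. Both overlapped between the groups, with log2 fold changes of 0.12 ± 0.07 for Rab7b and -0.12 ± 0.07 for Rab10.

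Rab44 had 4.96, 1.73 and 3.57 CPM in the miR-511-3p libraries, against 1.17, 1.44 and 9.82 CPM in the mutated libraries, and was uneven within the mutated group. The third mutated library is the one with 728 CPM of fibroblast markers, and T and NK cell markers summed to 2.18 to 4.47 CPM in the miR-511-3p libraries, against 6.32 and 3.17 CPM in the first and second mutated libraries and 19.7 CPM in the third. Whether these cells carry the Rab44 reads was not tested. Rab44 had a log2 fold change of -0.27 ± 0.82 with all libraries, 0.17 with the replicate number as a block and 1.38 without that library, and none of these passed. Without that library, no member was called either.

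Matches to the seed of miR-511-3p were found in the longest annotated 3′ UTR of 19 of the 59 members, 29 matches in all. Those searched were TACACATA, TACACAT and ACACATA on the transcript strand, each stretch counted once. Besides Rab27a and Rab37, Rab18 held an 8-base match. In the overexpression comparison Rab27a had 7.35, 8.12 and 8.23 CPM in the miR-511-3p libraries against 7.92, 6.73 and 9.31 CPM in the mutated libraries. The groups overlapped fully, and the log2 fold change was -0.01 ± 0.14. Rab37 had 0.522, 0.677 and 0.714 CPM in the miR-511-3p libraries against 1.63, 0.381 and 0.854 CPM in the mutated libraries, also with overlap, and a log2 fold change of -0.59 ± 0.50 that became 0.047 without the first mutated library. Rab18 had 145, 144 and 128 CPM in the miR-511-3p libraries against 140.2, 143 and 136 CPM in the mutated libraries, again with overlap, and a log2 fold change of -0.01 ± 0.07. None of the 3 genes was called.

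Of the 47 tested members 14 held a match, 29.8% against 19.9% of all tested genes with a 3′ UTR. The 3′ UTRs of members with a match were longer, with a median of 2020 bases against 1251 bases for members without one. The median log2 fold change was -0.02 for members with a match and 0.01 for members without one, the same values as for all genes with and without a match, -0.02 and 0.01. Of the 14 members with a match 9 lay below 0, as did 1391 of all 2374 tested genes with a match. In the sorted comparison Mir511 had 16, 11 and 12 reads in the MRC1+ libraries against 5, 3 and 0 reads in the CD11c+ libraries. Its log2 fold change was 2.03 ± 0.57 (edgeR adjusted p = 0.0453), a call on few reads. The median in that comparison was -0.03 for the 15 tested members with a match and -0.02 for the 35 without one. Of those with a match 3 were called lower and 1 higher, and of those without one 5 lower and 3 higher. For all tested genes with a 3′ UTR, the medians in this comparison were 0.04 with a match and 0.02 without one. Among these genes too, lower calls outnumbered higher calls, both with and without a match. Of all genes tested, whether or not they had a 3′ UTR, 9.71% were called lower and 6.91% higher in MRC1+ TAMs. A link between matches and calls was not tested.

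Set side by side, the 12 genes called between the sorted subsets had log2 fold changes of -0.59 (Rab37) to 0.07 (Rab43) under miR-511-3p. The standard errors were largest for the genes of few reads, 0.82 for Rab44, 0.50 for Rab37 and 0.49 for Rab19. For Rab31, Rab43, Rab3d, Rab32 and Rab8a they were 0.05 to 0.10. None of the 111 tested genes of the Rab machinery was called in this comparison by edgeR, nor in any alternative.

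**Figure D5:**
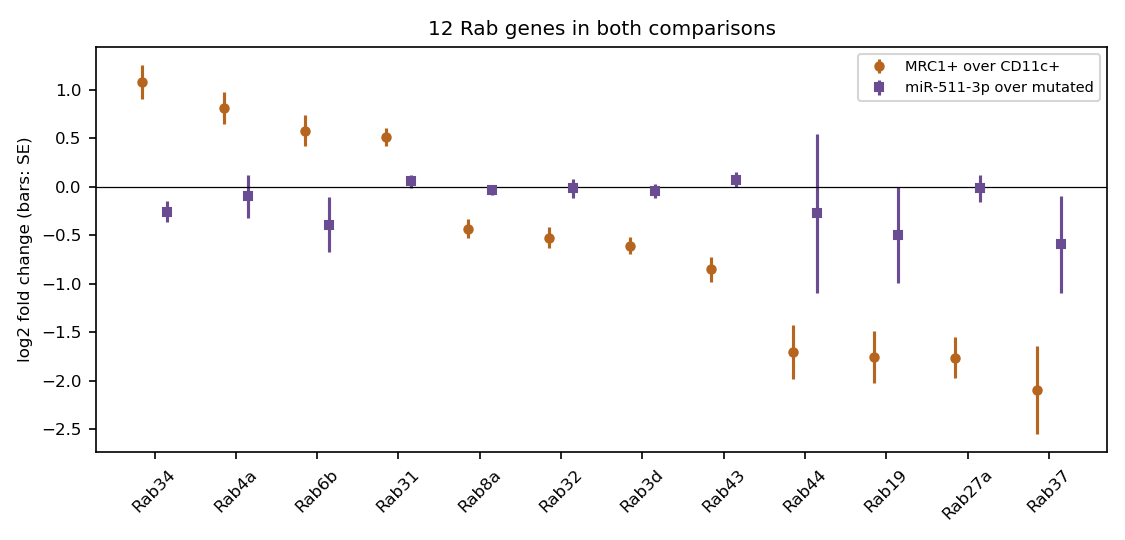
Log2 fold changes with SE bars of the 12 genes called between the sorted subsets, for MRC1+ over CD11c+ TAMs (brown circles) and for miR-511-3p over mutated miR-511-3p TAMs (violet squares). The circles run from 1.08 for Rab34 to -2.09 for Rab37, and the squares lie between -0.59 for Rab37 and 0.07 for Rab43.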

How the data were processed

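Per the labels' protocols, total RNA was made into sequencing libraries with an Illumina TruSeq kit. For each of the 12 libraries the authors deposited raw read counts per gene. Tools listed in the submitters' processing notes are TopHat 1.2.0 with Bowtie, SAMtools 0.1.12a and HTSeq, and the genome build was mm9 (NCBIM37) per the same notes. The sources used here do not give how HTSeq was set for overlaps and strand, and reads of overlapping genes and of near-identical relatives such as Rab1a and Rab1b are uncertain. The 5 summary entries of each table stayed out of library sizes and tests, and reads over no gene took 19.7% to 26.6% of each sorted library and 7.64% to 10.4% of each library with overexpression. Of 36439 gene identifiers 31819 received a symbol from GENCODE M21 (GRCm38), which also gave exon lengths, coding sequences and 3′ UTRs of at least 20 bases. Coordinates refer to these references, not to the build of the counts.

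Each comparison was fitted on its 6 libraries and all genes passing filterByExpr with the quasi-likelihood test of edgeR 4.0.16 (R 4.3.3, TMM, Benjamini-Hochberg, threshold 0.05), and tested on simulated data. The standard error is the log2 fold change over the square root of F. Identity was computed with Biopython 1.88 over global alignments. Alternatives were upper-quartile scaling, DESeq2 1.42.0, no filter, at least 5 CPM in 3 libraries, all 12 libraries in 1 fit, the replicate number as a block, and each library left out. Where that left 2 libraries in a group, the spread was pooled over both groups. No 2 libraries of a group agreed within sampling noise (chi-square per degree of freedom 9.18 to 33.0).

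Same-numbered libraries deviated together from their group means, with correlations across genes of 0.104, 0.337 and 0.250 in the sorted and 0.147, 0.258 and 0.462 in the overexpression groups. All exceed 0.1, the limit set here for taking equal numbers as pairs, though the first miR-511-3p library correlated more with the second mutated library, at 0.166. The pairing rests on the data and not on the labels. Every printed value comes from a fit without the block unless the block is named. The block was kept as an alternative although the limit was passed, so the main p-values take no account of the pairing. The members, their roles and the gene lists were chosen with earlier results of these data known. Named in full are all called members, the 3 closest above the threshold, the 6 most abundant per kilobase, the 4 of lowest p under miR-511-3p, up to 4 called genes of lowest p per machinery list, and pairs differing by more than 1. Rab8b, Rab38, Rab20, Rab5a, Rab5b, Rab7, Rab9, Rab23, Rab28, Rab40c, Rab18, Rab36 and Rab44 in the second comparison, and the genes shown with their promoters were singled out after their values were seen. So were the pairs Rab4a and Rab4b, Rab3a and Rab3d, and Rab8a and Rab8b.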

Additional observations from a re-analysis of the deposited data

How the results depend on the processing

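Of the 12 called members, Rab27a, Rab19, Rab43, Rab3d, Rab31 and Rab34 kept their call in all 12 alternatives, and none of the 12, nor Rab12, Rab11a and Rab27b, changed direction in any that gave a value. The called members numbered 14 with upper-quartile scaling and DESeq2, 13 without a filter and with at least 5 CPM, 12 with all 12 libraries, and 7 to 17 with a library left out, 2 to 6 of them higher and 5 to 11 lower. With the replicate number as a block 11 members were called, Rab6b being lost at an adjusted p of 0.051, and the block changed no other call among the members. With a library left out, called exchange factors numbered 4 to 18, GTPase-activating proteins 3 to 12, effectors 7 to 22 and core genes 0 to 1. The share of all genes called then ranged from 8.02% to 29.6%. Core genes called were 0 with upper-quartile scaling and 0 without a filter. Per reads of protein-coding genes the Rab share was 0.456% in MRC1+ and 0.431% in CD11c+ TAMs, and 0.536% in miR-511-3p and 0.529% in mutated miR-511-3p TAMs, the denominator being smaller. Under miR-511-3p no alternative called a member. Rab37 did not pass the 5 CPM filter and Rab27b had no value there. The log2 fold changes of some uncalled members changed sign in alternatives of the first comparison. With upper-quartile scaling Rab5b was at 0.0079, Rab5c at 0.029, Rab7 at 0.017, Rab7b at 0.048 and Rab9 at 0.0008. With at least 5 CPM Rab5c was at 0.0001 and Rab7b at 0.019, and Rab7b was at 0.006 without a filter and 0.0019 with the block. With a library left out Rab5a ranged from -0.022 to 0.073, Rab5b from -0.069 to 0.006, Rab5c from -0.12 to 0.071, Rab20 from -0.59 to 0.12, Rab38 from -0.34 to 0.26, Rab7 from -0.067 to 0.015 and Rab7b from -0.12 to 0.068. Under miR-511-3p Rab27a ranged from -0.12 to 0.11, Rab37 from -0.96 to 0.047, Rab18 from -0.044 to 0.044 and Rab44 from -0.73 to 1.38, and Rab44 was at 0.17 with the block. The causes were not tested. Depth limits the members under about 1 CPM, where a few reads set the level.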
